A study of Rattus norvegicus with 6 samples.

Results

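The genes described here are 9 antioxidant genes that are textbook targets of NRF2 or work beside them in heme, glutathione and thioredoxin defence: Hmox1, Srxn1, Nqo1, Gclc, Gclm, Txnrd1, Gsr, Sod2 and Cat. They were chosen by name with earlier results of these data known, so the shares of all genes set beside their counts only describe. Every probe set that the platform annotation gives to 1 of these symbols was taken. Each of the 9 has 1 probe set, and all 9 passed the filter on mean signal that 11540 of the 18166 named genes on the array passed. On these arrays the oligonucleotides against 1 gene form a probe set, which gives a single intensity.

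The series measured total RNA of cultured stem cells derived from skeletal muscle of male rats on Affymetrix Rat Gene 2.0 ST arrays, with 1 array for each of 6 culture conditions. By their titles these are a fatty acid library, a cholesterol library, an OZ serum library, an LZ serum library, a high glucose control and a low glucose control. The fatty acid was given as sodium palmitate, whose acid is saturated, at a dose and time the labels leave out, while the cholesterol cells received 100 mg/dl cholesterol carried by cyclodextrin. They do not say whether a control held cyclodextrin or which control belongs to a treatment, so a lipid library is set against both controls, and the smaller of its differences is given with both. The letters OZ and LZ are used as the titles give them. Because every condition has a single array, no value has an error, no test could be run, and each difference describes these libraries. The fatty acid and cholesterol libraries are read against the same controls, so their differences are not independent of each other.

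NRF2, encoded by Nfe2l2, is a transcription factor that is held in the cytoplasm and marked for destruction by KEAP1. Oxidants and electrophiles modify KEAP1, NRF2 then collects in the nucleus, pairs with small MAF proteins and binds antioxidant response elements near genes that make glutathione, reduce thioredoxin and detoxify quinones. BACH1 is a heme-sensitive repressor that occupies the same kind of element and is best known for holding down Hmox1. In skeletal muscle and its progenitors this system buffers the peroxides that come from mitochondria and from fat overload.

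RefSeq promoter windows of assembly GRCr8, from 250 bases before to 50 bases after an annotated start, were available for 7 of the 9 genes. Hmox1 and Gsr were not matched. The windows of Gclm, Txnrd1 and Srxn1 are shown because these genes had the largest differences between the fatty acid and the cholesterol library. Capitals mark a match to the core of the antioxidant response element, TGACNNNGC read on either strand (GCNNNGTCA as printed when it lies on the strand opposite to the gene), or to the AP-1 word TGAGTCA, which reads TGACTCA on the other strand.
Gclm: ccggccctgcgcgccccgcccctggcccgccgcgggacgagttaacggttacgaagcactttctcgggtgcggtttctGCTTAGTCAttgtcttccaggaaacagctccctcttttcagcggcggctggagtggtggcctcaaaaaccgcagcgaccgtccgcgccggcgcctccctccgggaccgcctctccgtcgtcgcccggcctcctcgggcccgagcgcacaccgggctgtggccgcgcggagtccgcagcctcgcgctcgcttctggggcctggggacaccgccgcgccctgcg
Txnrd1: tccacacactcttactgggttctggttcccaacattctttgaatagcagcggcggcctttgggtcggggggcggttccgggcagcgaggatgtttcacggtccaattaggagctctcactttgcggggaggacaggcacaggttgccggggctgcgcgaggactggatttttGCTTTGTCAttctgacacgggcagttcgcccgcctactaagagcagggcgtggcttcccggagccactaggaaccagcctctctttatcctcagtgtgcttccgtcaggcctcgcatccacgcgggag
Srxn1: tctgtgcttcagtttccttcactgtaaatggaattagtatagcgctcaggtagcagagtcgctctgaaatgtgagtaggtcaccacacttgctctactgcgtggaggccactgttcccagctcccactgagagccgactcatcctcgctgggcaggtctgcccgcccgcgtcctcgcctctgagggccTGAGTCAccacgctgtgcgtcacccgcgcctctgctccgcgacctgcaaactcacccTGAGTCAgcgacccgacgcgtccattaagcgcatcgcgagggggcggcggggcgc

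The Gclm window lies at chr2:213031885-213032184 on the plus strand, with the element core starting 172 bases before the start site as TGACTAAGC on the opposite strand. Txnrd1 has 2 annotated windows, and the one shown, the downstream of them, lies at chr7:22755855-22756154 on the minus strand, with TGACAAAGC on the opposite strand starting 78 bases before the start site. The Srxn1 window, chr3:161064562-161064861 on the plus strand, held no match to TGACNNNGC but 2 AP-1 words, which begin 62 and 5 bases before the start site. The word nearer the start site is followed by GC. It thus reads TGAGTCAGC, with G where the searched core has C, and was not counted as a core. Sod2 held the core TGACCCTGC, starting 35 bases before its start site, and the windows of Nqo1, Gclc and Cat held neither word. In all, 3 of the 7 matched genes held the element core, against 13.1% of all 27457 genes with a window, and 1 of 7 held an AP-1 word, against 5.04%. Of all 33469 windows, 12.1% held the element core, 4.63% held an AP-1 word and 0.170% held it at 2 places or more. No match to TGACNNNGC in these windows overlapped an AP-1 word. A match is only a run of letters, and elements outside these windows were not examined.

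**Figure D1:**
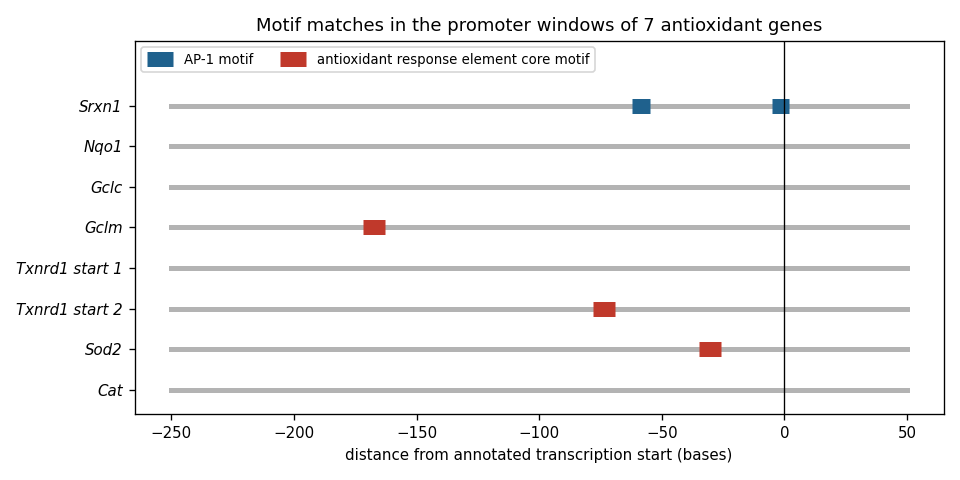
Each grey bar is the promoter window of 1 gene (Txnrd1 has 2), drawn by distance in bases from the annotated start, with matches to the antioxidant response element core in red and to the AP-1 word in blue. The core as searched, TGACNNNGC on either strand, lies in the windows of Gclm, Txnrd1 and Sod2, and Srxn1 has 2 AP-1 words and no such match.

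Median intensities of the 6 arrays lay between 104.6 and 109.2. Whether normalization made them alike is not stated, so a change in total RNA cannot be read from them. Between the controls, the absolute log2 difference of the 11540 genes had a median of 0.14 and a 95th percentile of 0.48. That percentile is the only guide here to how far libraries without added lipid stood apart, and it includes whatever the glucose level does. The cells carried mesenchymal progenitor genes at high signal, with the median of 11 such genes between log2 11.45 and 12.68 in every library. Of 11 myogenic genes, which define satellite cells and myoblasts, the median lay between 6.78 and 6.99, and 18 genes of unrelated tissues had medians between 6.19 and 6.44. Pax7, the defining satellite cell factor, had log2 6.90 to 7.26 and Myod1 6.17 to 6.48. Of the 11 myogenic genes 7 passed the filter, and Ncam1, an adhesion molecule that other cell types also carry, was far above the rest at log2 11.37 to 12.43. Of the 18 genes of unrelated tissues 4 passed it.

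Cells given fatty acid are compared with control cells first. In the fatty acid library the genes for heme breakdown, sulfiredoxin, glutathione synthesis and thioredoxin reduction were higher than in both controls, and the genes for superoxide dismutase, catalase and glutathione reductase were within 1.24-fold of each control. Hmox1 and Srxn1 were at least 2-fold higher than both controls, which makes 2 of 9 genes, against 0.641% of the 11540. None of the 9 was 2-fold lower, against 2.01%. At 1.5-fold, 5 of 9 were higher, against 2.92%, and none lower, against 6.13%. At any size 8 of 9 were higher than both, against 40.4%, and none was lower, against 39.7%. The median of the 9 differences was 0.78 on the log2 scale from the high glucose control and 0.87 from the low glucose control, beside 0.01 and -0.003 over all 11540 genes. In a culture, more of this RNA in each cell and more cells of a kind that carries it cannot be told apart.

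Hmox1 (probe set 17728071) encodes heme oxygenase-1, which splits heme into biliverdin, iron and carbon monoxide. Its intensity was 3607 in the fatty acid library and 2451 in the cholesterol library, 864 in OZ serum and 1103 in LZ serum, against 1147 in the high and 1543 in the low glucose control. Both lipid libraries lay above all 4 others, and the fatty acid library was the higher of them. The fatty acid library was 3.14-fold above the high and 2.34-fold above the low glucose control, and the smaller of these ranks 48 from the highest among the 11540 genes. Srxn1 (probe set 17767319) encodes sulfiredoxin, which uses ATP to restore peroxiredoxins that peroxide has over-oxidised. Its intensity was 1127 with fatty acid and 623 with cholesterol, 363 in OZ serum and 398 in LZ serum, against 394 in the high and 489 in the low glucose control. It had the same 2 libraries at the top, but the fatty acid library stood further off, 2.86-fold above the high and 2.30-fold above the low glucose control.

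Gclc and Gclm encode the catalytic and the modifier subunit of glutamate-cysteine ligase, the rate-limiting enzyme of glutathione synthesis. Gclc (probe set 17846065) had intensities of 1704 with fatty acid and 1070 with cholesterol, 927 in OZ serum and 834 in LZ serum, against 836 and 932 in the high and low glucose controls. Gclm (probe set 17742399) had 1256 with fatty acid and 614 with cholesterol, 759 in OZ serum and 760 in LZ serum, against 730 and 674 in those controls. Only the fatty acid library stood apart in Gclc and Gclm, and the cholesterol library was the lowest of the 6 in Gclm. With fatty acid, Gclc was 2.04-fold above the high and 1.83-fold above the low glucose control, and Gclm was 1.72-fold and 1.86-fold above them.

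Txnrd1 (probe set 17834717) encodes the cytosolic thioredoxin reductase, a selenoprotein that keeps thioredoxin reduced with NADPH. Its intensity was 2529 with fatty acid and 1301 with cholesterol, 926 in OZ serum and 999 in LZ serum, against 977 in the high and 1300 in the low glucose control. The fatty acid library was 2.59-fold above the high and 1.95-fold above the low glucose control, so it passed 2-fold against the high glucose control only. After quantile normalization it passed against both (smaller log2 difference 1.0009), and it did so against their mean (1.17). Gsr (probe set 17712135) encodes glutathione reductase, which returns oxidised glutathione to its reduced form. It had 1021 with fatty acid and 1117 with cholesterol, 851 in OZ serum and 877 in LZ serum, against 917 and 899 in the high and low glucose controls. Both lipid libraries were above the other 4, with fatty acid 1.11-fold and cholesterol 1.22-fold above the nearer control.

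Nqo1 (probe set 17733363) encodes a quinone reductase that moves a pair of electrons at once and so avoids semiquinone radicals. Its intensity was 9041 with fatty acid and 9636 with cholesterol, 4245 in OZ serum and 5083 in LZ serum, against 6064 in the high and 5812 in the low glucose control. It was the gene in which the lipid libraries were most alike and both clearly above the rest, at 1.49-fold with fatty acid and 1.59-fold with cholesterol above the nearer control. Sod2 (probe set 17628433), the manganese superoxide dismutase of mitochondria, had 1375 with fatty acid and 1434 with cholesterol, 1290 in OZ serum and 1763 in LZ serum, against 1650 in the high and 1111 in the low glucose control. The lipid libraries lay between the controls, so Sod2 has no common direction. Cat (probe set 17764333), the catalase of peroxisomes, had 4443 with fatty acid and 4921 with cholesterol, 3673 in OZ serum and 3832 in LZ serum, against 4221 and 4067 in the high and low glucose controls. Its whole range over the 6 libraries was 0.42 on the log2 scale, beside a median range of 0.41 over all 11540 genes.

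**Figure D2:**
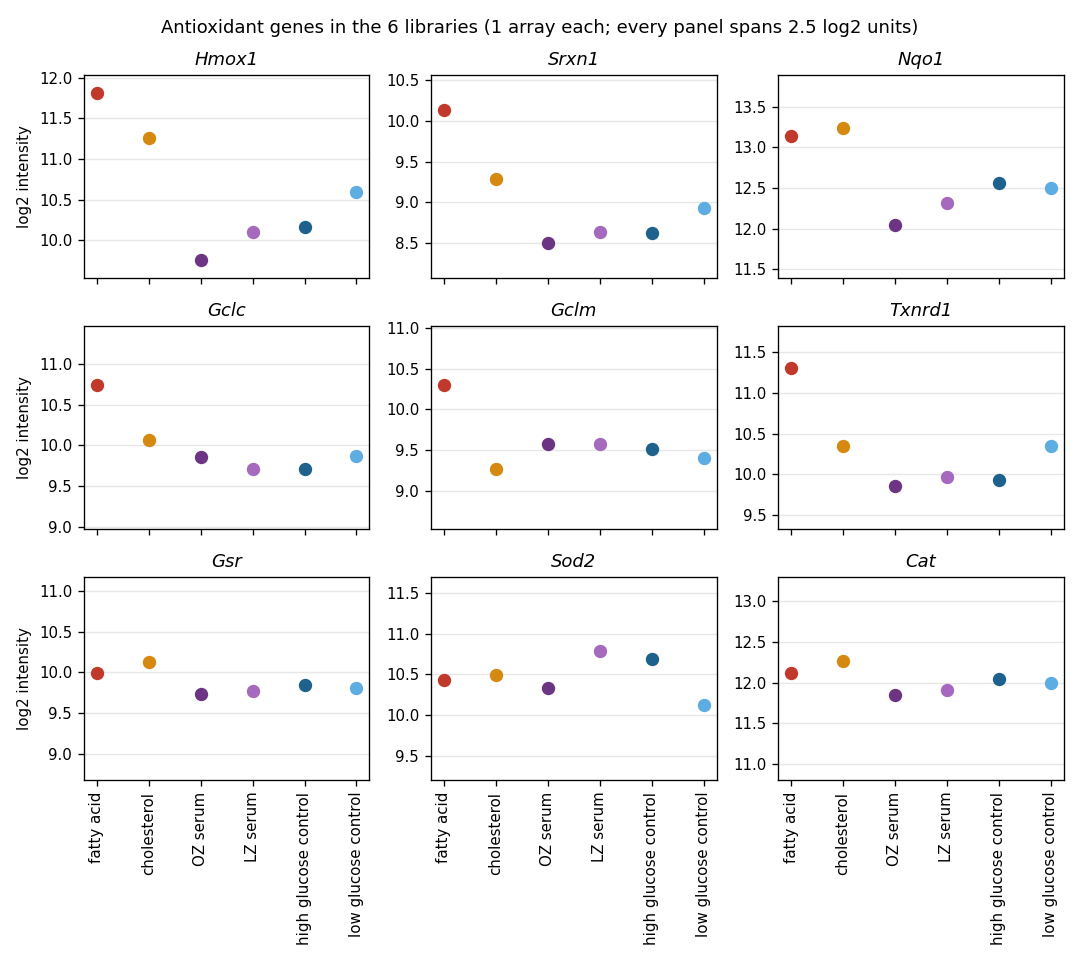
Log2 intensity of the 9 genes in the 6 libraries, 1 point for each array, with every panel spanning the same range of log2 units. The fatty acid library (red, leftmost) is highest in Hmox1, Srxn1, Gclc, Gclm and Txnrd1, the cholesterol library joins it in Nqo1, and Sod2 is highest in LZ serum and lowest in the low glucose control.

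Ordered by level, the fatty acid library was the highest of all 6 in Hmox1, Srxn1, Gclc, Gclm and Txnrd1, and the gap to the next library was 0.56, 0.85, 0.67, 0.73 and 0.96 on the log2 scale. Each of these gaps exceeds 0.48, the 95th percentile of control differences, and the fatty acid library topped the order by such a gap in 2.3% of the 11540 genes. It was lowest by such a gap in none of the 9, against 4.51%. The cholesterol library was highest in Nqo1, Gsr and Cat, with gaps of 0.09, 0.13 and 0.15, which do not exceed 0.48. It was thus highest by more than 0.48 in none of the 9, against 0.971%. It was lowest by more than 0.48 in none, against 0.615%, though it was lowest by a smaller gap in Gclm. Below the lipid libraries only the step from cholesterol to the low glucose control in Hmox1, 0.67, and the step from fatty acid to the high glucose control in Nqo1, 0.58, exceeded 0.48. No neighbours in the order among the serum libraries and the controls were further apart than 0.48 in any of the 9 genes, although LZ serum and the low glucose control, at the ends of the Sod2 order, lay 0.67 apart. Over the 6 arrays the 9 genes had a median range of 1.03, and 6 of them, all but Gsr, Sod2 and Cat, ranged over 1 log2 unit or more, as did 7.49% of the 11540 genes.

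Cells given cholesterol are compared with the same controls. In the cholesterol library the quinone and heme enzymes were higher, and the glutathione-synthesis and thioredoxin genes were close to the controls. Hmox1 and Nqo1 were both 1.59-fold above the nearer control, and none of the 9 genes reached 2-fold in either direction, against 0.381% of the 11540 higher and 0.806% lower. At 1.5-fold 2 of 9 were higher, against 1.36%, and none lower, against 2.04%, and at any size 7 of 9 were higher, against 36.3%, and Gclm was lower, against 33.6%. The median difference was 0.36 from the high and 0.31 from the low glucose control, beside 0.01 and 0.00 over all genes. Hmox1 depended on the control: it was 2.14-fold above the high and 1.59-fold above the low glucose control. Nqo1 did not, at 1.59-fold and 1.66-fold. Srxn1 was 1.58-fold and 1.27-fold above the controls and Gclc 1.28-fold and 1.15-fold, while Gclm was 1.19-fold and 1.10-fold below them. Txnrd1 was 1.33-fold above the high glucose control and level with the low glucose control, at 1301 against 1300.

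**Figure D3:**
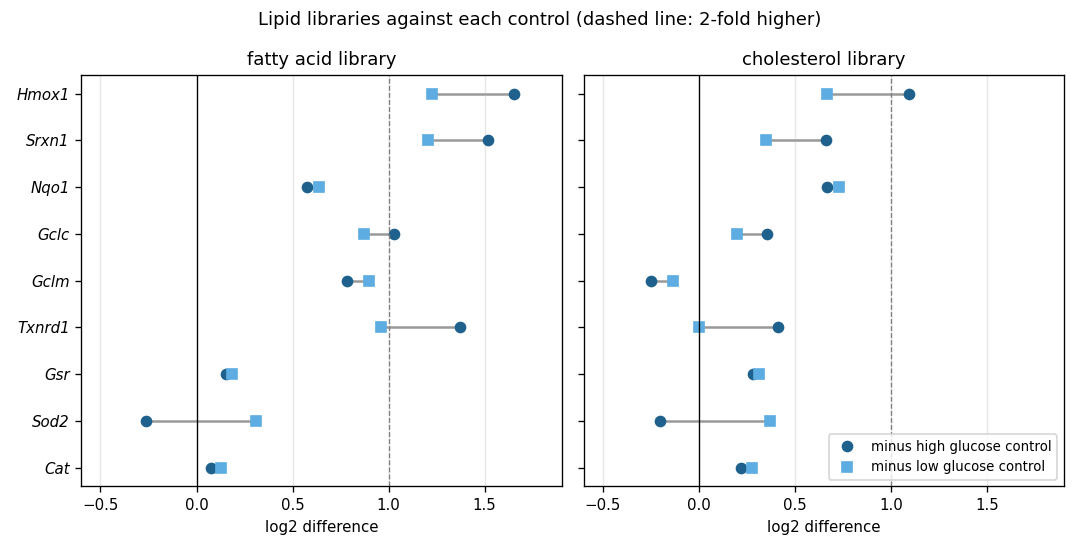
Log2 difference of the fatty acid library (left) and the cholesterol library (right) from the high glucose control (circles) and the low glucose control (squares) for each of the 9 genes, with a dashed line at 2-fold. With fatty acid Hmox1 and Srxn1 lie beyond the line against both controls, with cholesterol only Hmox1 does so and only against the high glucose control, and Gclm lies on opposite sides of 0 in the 2 panels.

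Set directly against each other, the lipid libraries divide the 9 genes. Glutathione synthesis, thioredoxin reduction and sulfiredoxin were higher in the fatty acid library, and Nqo1, Gsr, Sod2 and Cat differed by 1.11-fold or less. Gclm was 2.05-fold higher with fatty acid, at 1256 against 614, the only gene of the 9 past 2-fold, against 0.901% of the 11540, and it was just under 2-fold when 32 was added to the intensities before log2 (log2 0.996). None was 2-fold lower, against 1.92%. Txnrd1 was 1.94-fold, Srxn1 1.81-fold and Gclc 1.59-fold higher, so that 4 of 9 passed 1.5-fold, against 4.31%, with none 1.5-fold lower, against 7.43%. Hmox1 was 1.47-fold higher. The fatty acid library was above the cholesterol library in 5 of 9 genes and below it in 4, against 48% and 51.9% of all genes, and the median difference of the 9 was 0.56, beside -0.01 over all genes. The labels give no palmitate dose, so the lipids cannot be compared at matched doses.

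The serum libraries showed little of this. OZ serum was lower than LZ serum in 8 of 9 genes, against 58.1% of the 11540, and Gclc was higher, against 41.9%. Gclm was level (759 against 760), and its sign differed between normalizations. None of the 9 passed 2-fold in either direction, against 0% higher and 0.026% lower, and none passed 1.5-fold, against 0.113% and 0.147%. The largest differences were in Sod2, at 1290 in OZ serum against 1763 in LZ serum (1.37-fold lower), Hmox1, at 864 against 1103 (1.28-fold lower), and Nqo1, at 4245 against 5083 (1.20-fold lower). Sod2 ranks 69 and Hmox1 194 from the lowest among the 11540 genes in this comparison, in which differences were small throughout. Against both controls, Hmox1, Nqo1, Gsr and Cat were lower in both serum libraries, which is 4 of 9 against 19.7%, and Gclm was higher, 1 of 9 against 8.83%, with none past 2-fold, against 0% in either direction, and none past 1.5-fold, against 0.00867% in either direction. For Nqo1 the least of these differences was 1.14-fold and the greatest, between OZ serum and the high glucose control, was 1.43-fold. Against a single control some differences were larger. Hmox1 in OZ serum was 1.79-fold below the low glucose control, and Sod2 in LZ serum was 1.59-fold above it.

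The high glucose control differed from the low glucose control by less than 1.5-fold in all 9 genes. Sod2 was 1.49-fold higher in high glucose, at 1650 against 1111, and ranks 196 from the highest of the 11540. Hmox1, Srxn1 and Txnrd1 were lower in high glucose, by 1.34-fold, 1.24-fold and 1.33-fold. None of the 9 passed 2-fold, against 0.251% of all genes higher and 0.104% lower, or 1.5-fold, against 1.59% and 1.11%. At any size 5 of 9 were higher, against 48.9%, and 4 lower, against 51.1%. Because Hmox1, Srxn1, Gclc and Txnrd1 were lower in high glucose, any library stands higher relative to the high than to the low glucose control. In both lipid libraries their differences were therefore larger from the high glucose control by arithmetic alone.

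None of the 11 regulators of NRF2 that passed the filter differed 2-fold from both controls with fatty acid. The shares of all genes were 0.641% higher and 2.01% lower. With cholesterol none did either, against 0.381% and 0.806%. Nfe2l2 itself had an intensity of 5410 with fatty acid and 4854 with cholesterol, 4055 in OZ serum and 3788 in LZ serum, against 4183 and 3909 in the high and low glucose controls. It was highest in the lipid libraries, by 1.29-fold with fatty acid over the nearer control. Keap1 had 339 with fatty acid and 364 with cholesterol, against 346 in the high and 413 in the low glucose control. Bach1 was 1.27-fold, Maff 1.27-fold and Mafg 1.23-fold higher with fatty acid than in the nearer control, and Mafk was level with the controls at 974.5, against 988 and 932. The largest difference in the list was that of Sqstm1, which encodes p62, an autophagy receptor that binds KEAP1 and is itself an NRF2 target. Its intensity was 1433 with fatty acid and 1133 with cholesterol, against 891 in the high and 756 in the low glucose control. At any size, 8 of the 11 regulators were higher and 2 lower than both controls with fatty acid, beside 40.4% and 39.7% of all genes. The list's medians with fatty acid were 0.30 from the high and 0.34 from the low glucose control.

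The rest of the antioxidant system was examined in 7 lists, the regulators among them, that hold 151 genes besides the 9, of which 137 had a probe set of their own and 123 passed the signal filter. With fatty acid, 1 of the 123 was 2-fold higher than both controls and 6 were 2-fold lower, beside 0.641% and 2.01% of all genes, and 49 were higher and 56 lower at any size, beside 40.4% and 39.7%. With cholesterol none passed 2-fold, beside 0.381% and 0.806%, and 49 were higher and 36 lower, beside 36.3% and 33.6%. The single gene past 2-fold upward with fatty acid was Akr1b8, an aldo-keto reductase for reactive aldehydes, at 2122 with fatty acid and 1749 with cholesterol, against 639 in the high and 969 in the low glucose control, or 2.19-fold over the nearer control. Akr1b8 belongs to a family of close relatives, and how far its probes separate them is not known. Osgin1, an oxidative stress-induced growth inhibitor, had 340 with fatty acid and 250 with cholesterol, against 179.8 and 178.5 in the high and low glucose controls. Ugdh, which makes UDP-glucuronate for conjugation, was at 3387 with fatty acid and 2416 with cholesterol, against 1607 and 1802.

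Among the conjugating enzymes the direction was mixed. Gsta1, an alpha-class glutathione transferase, had an intensity of 560 with fatty acid and 730 with cholesterol, 144 in OZ serum and 163.5 in LZ serum, against 289 in the high and 373.5 in the low glucose control, so it was high in both lipid libraries and low in both serum libraries. Gstm2, a mu-class transferase, was 2.55-fold lower with fatty acid, at 834, against 2242 and 2125 in the high and low glucose controls, and it was 1935 with cholesterol. Ephx1, the microsomal epoxide hydrolase, was 2.01-fold lower with fatty acid than the nearer control, at 661 against 1891 and 1329. Gstm2 and Gsta1 also belong to families with close relatives. Aox1, an aldehyde oxidase, had the largest fall from the nearer control among the 123 with fatty acid. Its intensity was 172 with fatty acid and 696 with cholesterol, against 552 and 526 in the high and low glucose controls. Xdh, xanthine dehydrogenase, which can release superoxide, had 572 with fatty acid and 1511 with cholesterol, against 775 and 619 in the same controls, and was 1.95-fold above the nearer control with cholesterol. Ucp2, an uncoupling protein of the mitochondrial inner membrane, Sesn3, a sestrin, and Me3, the mitochondrial NADP-dependent malic enzyme, were 2.60-fold, 2.30-fold and 2.09-fold lower with fatty acid than the nearer control. Me3, at an intensity of 84.3 with fatty acid, lay below the filter's level of 107.2 there, so its fold is less certain.

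For glutathione supply and use, 31 genes had medians of -0.13 and -0.14 with fatty acid, so the list as a whole did not share the direction of the ligase subunits. Slc7a11, the cystine carrier that feeds the ligase, was not higher: it had 1861 with fatty acid and 1053 with cholesterol, 1992 in OZ serum and 2295 in LZ serum, against 1820 and 2063 in the high and low glucose controls. It stood apart in the cholesterol library alone, 1.73-fold below the nearer control. Chac1, which breaks glutathione down, was likewise lowest with cholesterol, at 1011, against 1770 and 1843 in those controls, and was 1931 with fatty acid. Gss, which adds glycine in the last step of synthesis, was 1.42-fold higher with fatty acid than in the nearer control. Gpx1, the cytosolic glutathione peroxidase, was 1.61-fold below the nearer control with cholesterol, at 1071 against 1725 and 2585.5.

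Among 18 thioredoxin and peroxiredoxin genes the medians with fatty acid were -0.06 and -0.13. Prdx1, the cytosolic peroxiredoxin that sulfiredoxin repairs, had 5871 with fatty acid and 3903 with cholesterol, against 4130 and 4186 in the high and low glucose controls. It was 1.40-fold above the nearer control with fatty acid alone, while Txn1, thioredoxin itself, had 11180 with fatty acid and 11097 with cholesterol, against 10237 and 10673. Prdx4, the peroxiredoxin of the endoplasmic reticulum, was 1.70-fold lower with fatty acid than the nearer control. None of the 16 heme and iron genes passed 1.5-fold with fatty acid, against 2.92% of all genes higher and 6.13% lower. None did with cholesterol, against 1.36% and 2.04%. Ferritin heavy chain Fth1 was 1.20-fold and Ftl1 1.03-fold higher with cholesterol, Hmox2, the constitutive heme oxygenase, had 379 with fatty acid and 397 with cholesterol, against 394 and 378, and Blvrb, a biliverdin reductase, had 1160 with fatty acid and 982 with cholesterol, against 1002 and 1070 in the high and low glucose controls. Of 13 genes in the list of NADPH supply, none passed 1.5-fold upward with fatty acid, against 2.92% of all genes, or with cholesterol, against 1.36%. Downward, 2 passed with fatty acid, against 6.13%, and 1 with cholesterol, against 2.04%. The list's medians with fatty acid were -0.09 from the high and -0.20 from the low glucose control. Me1, a known NRF2 target, was 1.09-fold higher with fatty acid and 1.19-fold lower with cholesterol.

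**Figure D4:**
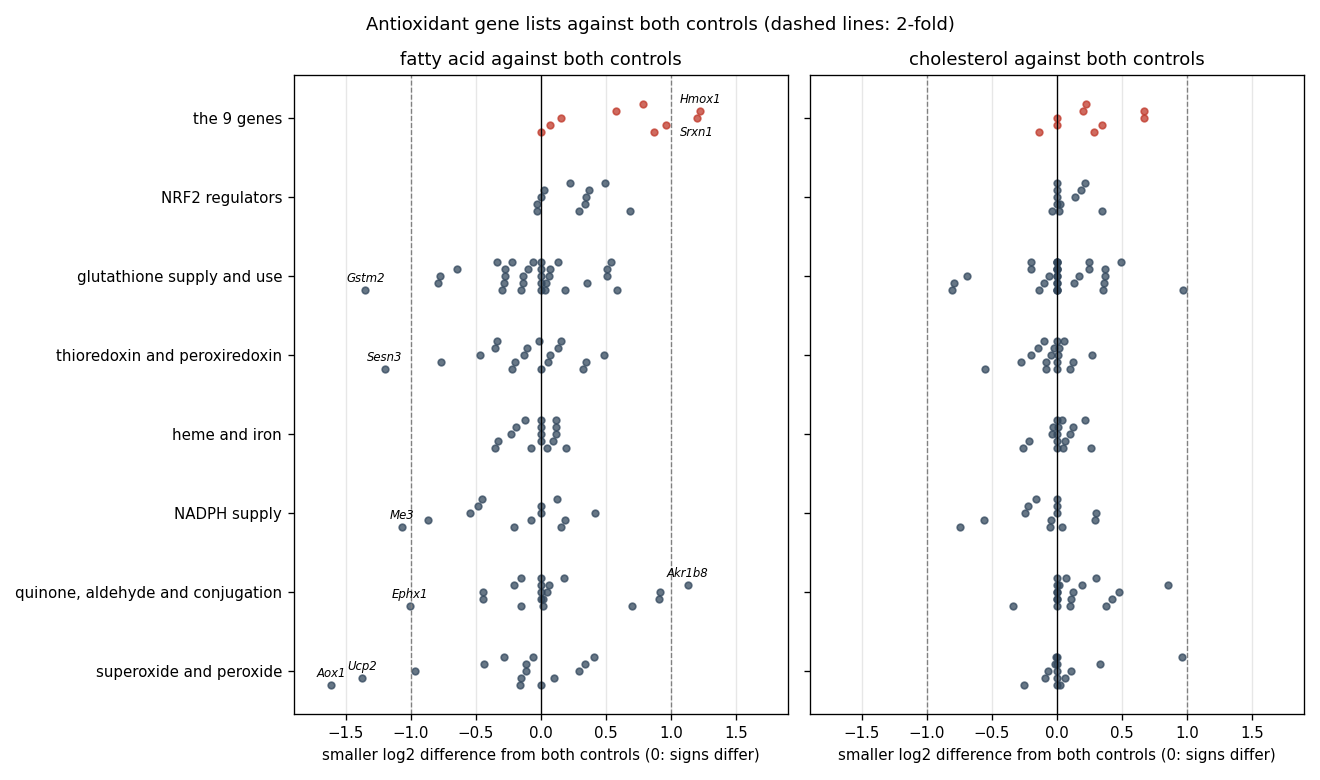
Each point is a gene that passed the signal filter, placed at the smaller of its log2 differences from both controls (0 where the signs differ), for the 9 genes (red) and 7 other antioxidant lists, with fatty acid on the left and cholesterol on the right. Dashed lines mark 2-fold and genes beyond them are named. With fatty acid Hmox1, Srxn1 and Akr1b8 lie beyond the upper line and 6 genes beyond the lower, and with cholesterol none does.

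Hmox1 is also made by macrophages, and 13 macrophage and leukocyte markers were therefore read beside it. Of these, 3 passed the signal filter (Cd68, Cd14 and Tyrobp), and Ptprc, Csf1r, Adgre1, Cd163 and Itgam had log2 signals of 6.40 or less in every library, which is the level of genes from unrelated tissues. The summed intensity of the 13 was 1138 with fatty acid and 2123 with cholesterol, against 1520 in the high and 1282 in the low glucose control. Of the 3 that passed the filter, 2 were higher with fatty acid than in both controls, beside 40.4% of all genes, and 1 lower, beside 39.7%. All 3 were higher with cholesterol, beside 36.3%. Cd68, a lysosomal glycoprotein, was 148 with fatty acid and 331 with cholesterol, against 112.4 and 108.9 in the high and low glucose controls. Cd14, the highest of the 13 in each of these libraries, was 341 with fatty acid and 1121 with cholesterol, against 785 and 517. Its fall with fatty acid from each control was larger than that of the sum, so the other markers together were not lower. The part of these markers in the Hmox1 results with fatty acid and with cholesterol was not tested. Of 10 mesenchymal progenitor genes past the filter the median difference with fatty acid was -0.78 from the high and -0.83 from the low glucose control. The summed intensity of 11 mesenchymal progenitor genes was lowest with fatty acid, at 45923, and 54801 with cholesterol, against 62251 and 66493 in the controls, and its part in the results was not tested either.

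Genes with the most similar profile over the 6 libraries were named for the 6 genes that ranged over at least 1 log2 unit, from 853 genes of that range with an established symbol. Pearson's r is given as a description, because 1 or 2 lipid libraries set the whole pattern over 6 points. Nearest to Hmox1 was Kcnn4, a calcium-activated potassium channel (r = 0.996), then Slc35e4 (0.989) and Tmem100 (0.988). For Srxn1 it was Gdf15, a stress-induced cytokine (0.995), then Il17ra (0.993) and the receptor Epha2 (0.993). Txnrd1 was closest to Sphk1, a sphingosine kinase (0.996), Clcf1 (0.993) and Ern1, which encodes the stress sensor IRE1 (0.989). Gclc was closest to Ankrd13c (0.998), Nipal1 (0.992) and Pvr (0.989), Gclm to Cdkn2aip (0.990), Psx1 (0.987) and Rpf1 (0.986), and Nqo1 to Gfpt2 (0.979), the growth factor Fgf7 (0.973) and Csf1 (0.968). No gene appears in more than 1 of these lists. Among the 9 genes themselves the closest pairs were Srxn1 with Txnrd1 (0.983), Gsr with Cat (0.972) and Hmox1 with Srxn1 (0.968). Gsr and Cat ranged over only 0.39 and 0.42 log2 units, less than 0.48, the 95th percentile of control differences.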

How the data were processed

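Per the labels' protocols, total RNA from cultured muscle stem cells was isolated with an RNeasy Plus Micro kit (Qiagen) and hybridised to Affymetrix Rat Gene 2.0 ST arrays. The authors deposited 1 intensity per probe set and array on a linear scale, for 36685 probe sets on 6 arrays. How they summarised, background-corrected and normalized them is not stated in the labels used. The number of arrays limits the precision.

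From these values, log2 was taken without an offset. Only the 18511 probe sets to which the platform annotation assigns a single gene were used, not the 575 with several or the 17599 with none. Of 18166 genes, 291 had several probe sets and took the one with the highest mean. The filter kept 11540 genes whose mean log2 reached 6.74, the median over the arrays. Sequences came from RefSeq tables of GRCr8.

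With 1 array per group, a difference is the smallest over all reference libraries when all share a sign, otherwise 0, and counts at 2-fold. The rule was tested on simulated data. Named genes are the 9, fixed regulators and targets, the largest differences of each list, and the 3 nearest profiles. The members and lists were chosen with earlier results of these data known. Alternatives covered scaling, filters, probe sets, threshold, offset and controls. Python 3.11.15, numpy 2.4.6, pandas 2.3.3, matplotlib 3.10.9, R 4.3.3 and limma 3.58.1 (cyclic loess only) were used.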

Additional observations from a re-analysis of the deposited data

How the results depend on the processing

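The counts of the 9 genes past the threshold and their medians were recomputed under 11 alternatives, and 6 of the values moved by more than 1.5 times (counts, or to or from 0) or 0.144 log2 (medians), while 196 stayed within that. Within it, the count of genes 2-fold higher with fatty acid than the controls was 3 in place of 2 after quantile normalization and against the mean of both controls. At 1.5-fold in place of 2-fold, 5 genes were higher with fatty acid and 2 with cholesterol than both controls, and 4 were higher with fatty acid than with cholesterol. With the high glucose control only, 4 genes were 2-fold higher with fatty acid and 1 with cholesterol. With an offset of 32 before log2, 0 were 2-fold higher with fatty acid than with cholesterol. Over all genes, 1.5-fold gave 337 higher and 707 lower with fatty acid, against 74 and 232 at 2-fold, and 157 and 235 with cholesterol, against 44 and 93. It gave 497 and 857 between fatty acid and cholesterol, against 104 and 221, 184 and 128 between the high and low glucose controls, against 29 and 12, and 13 and 17 between OZ and LZ serum, against 0 and 3. With the high glucose control only, all-gene counts were 118 and 354 with fatty acid and 75 and 157 with cholesterol, and with the low glucose control only or the mean of both, 91 or 71 were higher with cholesterol. Without the signal filter 9 and 6 differed between OZ and LZ serum, and with a stricter filter or the offset 1 was lower. For the serum libraries, with none past 2-fold against both controls, 1 and 1 passed 1.5-fold, 8 and 5 passed 2-fold against the low glucose control only, and 2 were lower than the mean of both. The cause was not tested. For the 9 genes singly, 24 values moved by more than 0.144 log2, all where the set of controls changed, and 489 did not. The 9 genes have 1 probe set each and passed every filter, so the filter and probe set alternatives could not change their values, counts or medians. The threshold could change only the counts. The unmoved values include these fixed ones, which say nothing about stability. Gclm between OZ and LZ serum, which was level, took either sign (-0.04 after median centring, 0.04 after quantile normalization). No replicate could be left out, and no paired analysis was possible because each group has 1 array. No group is large enough to look for an outlying sample.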
